A study of Mus musculus with 7 samples.

Results

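The 9 genes described here make, store, take up and break down serotonin: Tph1, Tph2, Ddc, Gch1, Slc18a1, Slc18a2, Slc6a4, Maoa and Maob. They were listed by gene name, with earlier results of these data known, and are 9 of the 19938 genes that the array measured in this series. Each had 1 probe set annotated to its symbol alone. RNA of whole pancreatic islets, isolated at pregnancy day 15, was hybridised to Affymetrix expression arrays, 1 array per mouse. The islets came from 3 PrlR+/+ females, which carry an intact prolactin receptor gene, and from 4 PrlR+/- females, which are heterozygous for a null allele of that gene. All mice had the C57BL/6 strain background and were mated at 12 to 16 weeks of age, and the labels name no transgene and no restriction of the null allele to a cell type. Expression of the prolactin receptor gene was not analysed here, and no check of the genotypes by that gene was made.

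Serotonin is made from tryptophan. A tryptophan hydroxylase, Tph1 or Tph2, carries out the first and rate-limiting step with tetrahydrobiopterin as cofactor, and the decarboxylase Ddc completes the amine. Gch1 starts the synthesis of the cofactor, the vesicular transporters Slc18a1 and Slc18a2 load monoamines into secretory granules, Slc6a4 takes serotonin back up from outside the cell, and the mitochondrial oxidases Maoa and Maob degrade it. In pregnancy prolactin and placental lactogens are known to induce both hydroxylases in mouse beta cells, and the serotonin that follows acts on the beta cells through their receptors.

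The sequences upstream of both hydroxylase genes are shown because these were the members with the lowest differences. They are the 250 bases before each start site in RefSeq (GRCm38.p6), on the minus strand of the chromosome, written 5′ to 3′ along the gene. Capitals mark TGACG or its reverse complement, the half-site bound by cAMP-responsive factors.
Tph1, outer start, chr7:46672538-46672787: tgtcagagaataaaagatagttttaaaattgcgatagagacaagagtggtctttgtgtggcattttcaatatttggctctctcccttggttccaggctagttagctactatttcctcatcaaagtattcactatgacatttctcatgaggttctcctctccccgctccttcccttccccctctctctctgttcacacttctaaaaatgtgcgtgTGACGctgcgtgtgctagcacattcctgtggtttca
Tph1, inner start, chr7:46667378-46667627: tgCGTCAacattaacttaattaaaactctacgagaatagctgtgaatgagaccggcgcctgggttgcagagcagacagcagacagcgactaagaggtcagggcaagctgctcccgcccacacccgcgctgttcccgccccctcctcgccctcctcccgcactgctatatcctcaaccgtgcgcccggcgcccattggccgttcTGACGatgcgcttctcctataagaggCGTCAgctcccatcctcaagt
Tph2, chr10:115185023-115185272: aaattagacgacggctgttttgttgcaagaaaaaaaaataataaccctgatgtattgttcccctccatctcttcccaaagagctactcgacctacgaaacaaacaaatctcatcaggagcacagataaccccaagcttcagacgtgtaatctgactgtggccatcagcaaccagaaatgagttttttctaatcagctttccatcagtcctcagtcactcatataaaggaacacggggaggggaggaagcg

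The outer Tph1 window held 1 such match, 36 bases before the start, and the inner window held 3, at 248, 47 and 21 bases before it. The Tph2 window held 0. Over all 32851 upstream windows of this length in the table, 17.8% held a match on either strand. The palindromic STAT motif TTCNNNGAA was searched as well, on both strands, since STAT factors act below the prolactin receptor. It had 0 matches in the 9 windows found for 7 members, so none overlapped a marked half-site, and 7.02% of all windows held it. A match or its lack describes these letters only.

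The arrays were alike in their general level, with a median gene value between 7.34 and 7.37 on the log2 scale. PrlR+/- 4 stood apart by the narrowest spread, with 3.15 between its quartiles against 3.26 to 3.45 on the 6 other arrays. Islet hormone genes were near the top of the measured range on every array, among them Ins2 at 13.23 to 13.36 and Gcg at 13.47 to 13.63. So was the acinar enzyme gene Cpa1, at 13.62 to 13.77, so the islets also held exocrine RNA. No detection calls were used. By a filter at the 40th percentile of gene means, 8 of the 9 members passed; Slc6a4 did not, and Slc18a2 was just above it and did not pass a filter that asked for values above the array's probe set median in 3 samples. Levels are compared below between mice for the same gene, not between genes. In whole islets, fewer cells of a type and less RNA per cell cannot be told apart.

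Setting PrlR+/- against PrlR+/+ islets asks whether losing 1 copy of the receptor gene alters serotonin gene expression in pregnant mice. No member passed the test over all genes. limma called 0 of 9 members, where it called 0% of the 19938 genes at an adjusted p under 0.05. Tph1, Tph2 and Slc18a1 had the lowest differences, and the means of 7 members were lower in PrlR+/-, where 43.7% of all genes had a lower mean. At an unadjusted p under 0.05, 2 members, Tph2 and Slc18a1, were lower and 0 were higher; over all genes the shares were 1.13% lower and 1.07% higher, or 2.20% in either direction. This count of 2 was 1 without PrlR+/+ 1, PrlR+/+ 3, PrlR+/- 2 or PrlR+/- 4, and 4 without PrlR+/- 1. Without PrlR+/- 3 it was 2, but of Tph1 and Slc18a1. The groups did not overlap for 1 member, Slc18a1, against 1.21% of all genes that were lower in every PrlR+/- mouse than in every PrlR+/+ mouse. Without PrlR+/+ 2 they did not overlap for 3 members, and without PrlR+/- 1 for 4. Groups of fewer mice overlap less readily. No share over all genes is given with a mouse left out, so none of these counts can be set against a background. The median difference of the 9 members was -0.14, against 0.01 over all genes. The labels say that the islets of each mouse were analysed separately, and 3 against 4 arrays limit the precision.

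**Figure D1:**
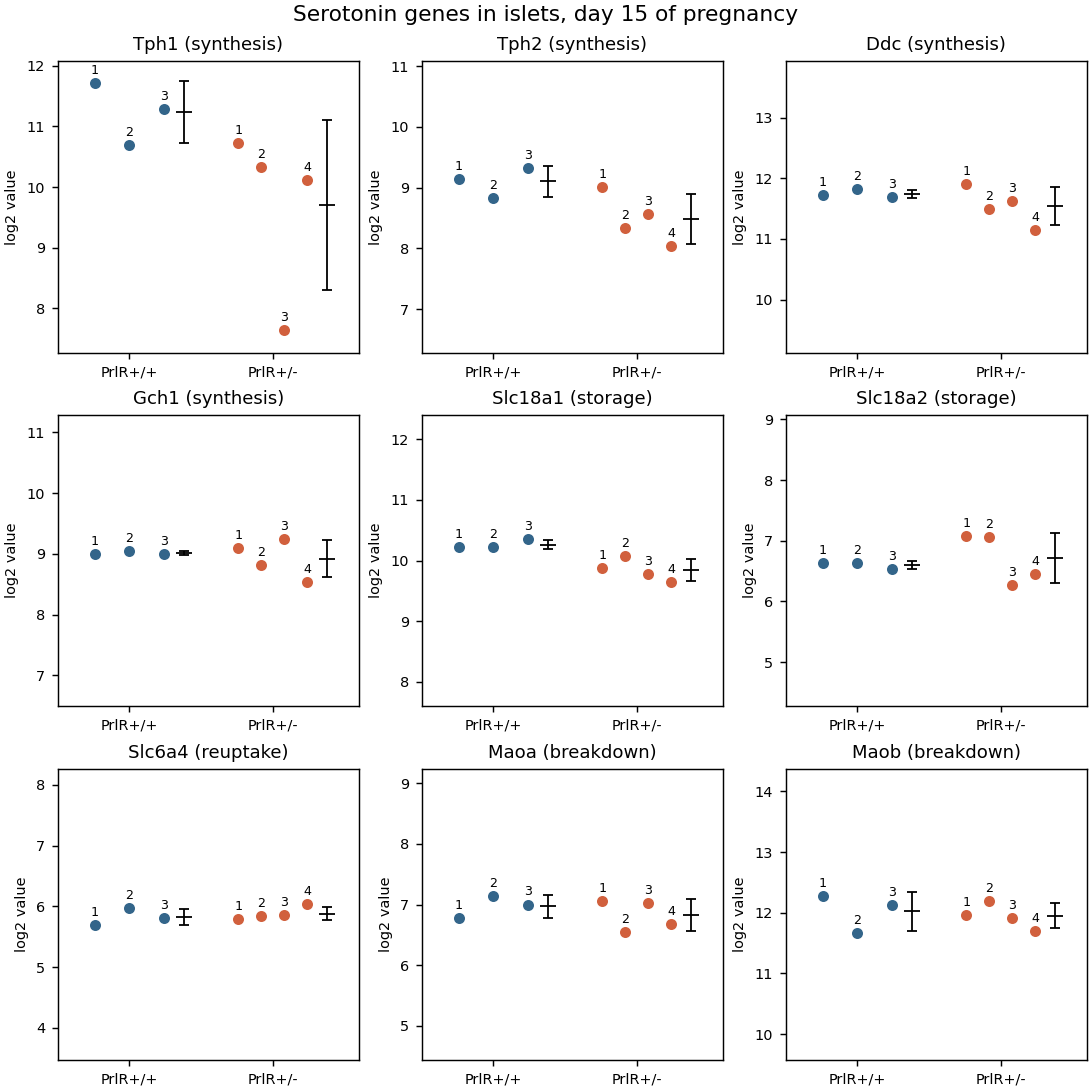
Log2 values of the 9 members in each mouse, by genotype, with mouse numbers beside the points and the mean ± SD as a black bar. Every panel spans the same number of log2 units, so distances can be compared across panels; Tph1 in PrlR+/- 3, at 7.64, lies far below the 6 other mice, and for Slc18a1 every PrlR+/- point is below every PrlR+/+ point.

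Tph1, the hydroxylase of peripheral tissues, had the widest spread of the members. Its log2 values were 11.71, 10.70 and 11.29 in PrlR+/+ 1 to 3, then 10.72, 10.33, 7.64 and 10.12 for PrlR+/- 1 to 4. All 4 PrlR+/- mice were below the PrlR+/+ mean, but PrlR+/- 1 lay 0.02 above PrlR+/+ 2, so the groups overlapped. Expressed against the mean log2 value of the PrlR+/+ mice, Tph1 stood at 70.1% in PrlR+/- 1, 53.5% in PrlR+/- 2, 8.29% in PrlR+/- 3 and 46.2% in PrlR+/- 4, while the PrlR+/+ mice themselves ranged from 69.1% to 139%. The log2 difference was -1.53 ± 0.71 (SE), with a 95% interval from -3.20 to 0.14 (limma, unadjusted p = 0.0673, adjusted p = 0.99). The 2-sided exact permutation test over the 35 splits of the mice gave p = 0.0857; no split could give less than 0.0286. Without PrlR+/- 3 the difference was smaller, at -0.84, but so was its error, 0.28 (SE), and the unadjusted p was 0.0253 (limma, adjusted p = 0.869).

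Tph1 was also among the most variable transcripts of the whole array. Of 19938 genes, 2 had an SD over the 7 mice as large as that of Tph1 or larger, Tph1 included, at 1.32 on the log2 scale against a median of 0.134. With the genotype means removed the SD of Tph1 was 1.13 against a median of 0.135, and 5 genes, Tph1 included, reached it. The SD of Tph1 within genotype was 0.51 (n = 3) in PrlR+/+ and 1.40 (n = 4) in PrlR+/- mice. All these SDs except that of PrlR+/+ include PrlR+/- 3 at 7.64, whereas the other PrlR+/- mice were at 10.72, 10.33 and 10.12. They thus describe 1 far value more than a spread over the whole PrlR+/- group.

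Tph2, the hydroxylase best known from neurons, had log2 values of 9.15, 8.83 and 9.33 in PrlR+/+ 1 to 3 and of 9.01, 8.33, 8.56 and 8.04 in PrlR+/- 1 to 4. PrlR+/- 1 was above PrlR+/+ 2, and the 3 other PrlR+/- mice were below all PrlR+/+ mice. Its mean of 8.49 ± 0.41 (SD, n = 4) in PrlR+/- islets compared with 9.10 ± 0.25 (SD, n = 3) in PrlR+/+, and the difference was -0.62 ± 0.23 (SE), a ratio of 0.651 with a 95% interval from 0.449 to 0.945 (limma, unadjusted p = 0.0294, adjusted p = 0.99). The 2-sided exact permutation test gave p = 0.0857. Unlike Tph1, Tph2 was not lowest in PrlR+/- 3 but in PrlR+/- 4.

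The genes that complete the amine and its cofactor had smaller differences. Ddc, the aromatic amino acid decarboxylase, was at 11.73, 11.82 and 11.69 in PrlR+/+ 1 to 3 and at 11.91, 11.50, 11.62 and 11.15 in PrlR+/- 1 to 4. PrlR+/- 1 was the highest of all mice and the 3 other PrlR+/- mice were the lowest. Its difference of -0.20 ± 0.16 (SE) had a 95% interval from -0.58 to 0.18 (limma, unadjusted p = 0.255). Without PrlR+/- 4 it was -0.07 and without PrlR+/- 1 it was -0.32. Gch1, the GTP cyclohydrolase at the head of tetrahydrobiopterin synthesis, was within 8.99 to 9.05 in PrlR+/+ mice and at 9.09, 8.81, 9.24 and 8.54 in PrlR+/- 1 to 4. The PrlR+/- values thus lay on both sides of the PrlR+/+ values, and the difference of -0.09 ± 0.16 (SE) turned to 0.04 without PrlR+/- 4.

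Of the vesicular transporters, Slc18a1 had the lowest p of all members and Slc18a2 showed no common direction. Slc18a1, the transporter of endocrine cells, was at 10.22, 10.22 and 10.35 in PrlR+/+ 1 to 3 and at 9.88, 10.07, 9.77 and 9.65 in PrlR+/- 1 to 4. The highest PrlR+/- value was 0.15 below the lowest PrlR+/+ value. The ratio of PrlR+/- to PrlR+/+ was 0.747, with a 95% interval from 0.631 to 0.884 (limma, unadjusted p = 0.00442, adjusted p = 0.99), and by this p it ranked 10 among 19938 genes. The 2-sided exact permutation test gave p = 0.0571. With any single mouse left out the difference lay between -0.50 and -0.36.

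Slc18a2, the transporter best known from neurons, platelets and mast cells, was at 6.64, 6.64 and 6.53 in PrlR+/+ 1 to 3 and at 7.08, 7.06, 6.27 and 6.45 in PrlR+/- 1 to 4. PrlR+/- 1 and PrlR+/- 2 were above all PrlR+/+ mice and the other PrlR+/- mice below all of them. The difference was 0.11 ± 0.21 (SE), with a 95% interval from -0.38 to 0.61 (limma, unadjusted p = 0.612). It was -0.01 without PrlR+/- 1 and -0.003 without PrlR+/- 2.

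The reuptake transporter and the oxidases gave intervals on both sides of 0. Slc6a4, which did not pass the filter on dim genes, ranged from 5.70 to 5.97 among PrlR+/+ and from 5.79 to 6.04 among PrlR+/- mice, with a difference of 0.06 ± 0.09 (SE). Maoa was at 6.77, 7.14 and 7.0 in PrlR+/+ 1 to 3 and at 7.06, 6.54, 7.03 and 6.68 in PrlR+/- 1 to 4. Its difference was -0.14 ± 0.15 (SE), with a 95% interval from -0.50 to 0.22. Maob, encoded beside Maoa on the X chromosome, was at 12.28, 11.67 and 12.12 in PrlR+/+ 1 to 3 and at 11.97, 12.20, 11.92 and 11.70 in PrlR+/- 1 to 4. PrlR+/+ mice held both its highest and its lowest value, and the difference was -0.08 ± 0.17 (SE), with a 95% interval of the ratio from 0.722 to 1.25. The intervals of both oxidases include 0 and also include the difference measured for Slc18a1, -0.42.

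The spread between mice was larger in PrlR+/- than in PrlR+/+ islets for 7 of the 9 members, the exceptions being Slc6a4 and Maob. This was also the case for 69.3% of all genes. By the ratio of the SDs the widest contrasts were those of Gch1 and Slc18a2. The SD of Gch1 was 0.310 (n = 4) against 0.035 (n = 3), and that of Slc18a2 was 0.417 against 0.064. By the difference of the SDs the widest contrast was that of Tph1, in which PrlR+/- 3 lay far below the other mice. PrlR+/- 4 held the lowest value of 4 members, Tph2, Ddc, Gch1 and Slc18a1. In the same mouse the mean of 7 beta cell markers was 11.71, against 11.86 to 12.07 in the 6 other mice, the beta cell transcription factor gene Mafa was at 9.54 against 10.32 to 10.36, and Slc2a2, encoding the beta cell glucose transporter, was at 11.31 against 11.94 to 12.39. Other beta cell markers went the other way in that mouse: Nkx6-1 at 11.27 and Iapp at 13.52 each shared the highest value of all mice, and Ins2 was second highest at 13.33. The part of these levels, and of the narrow spread of that array, in the members' values was not tested.

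**Figure D2:**
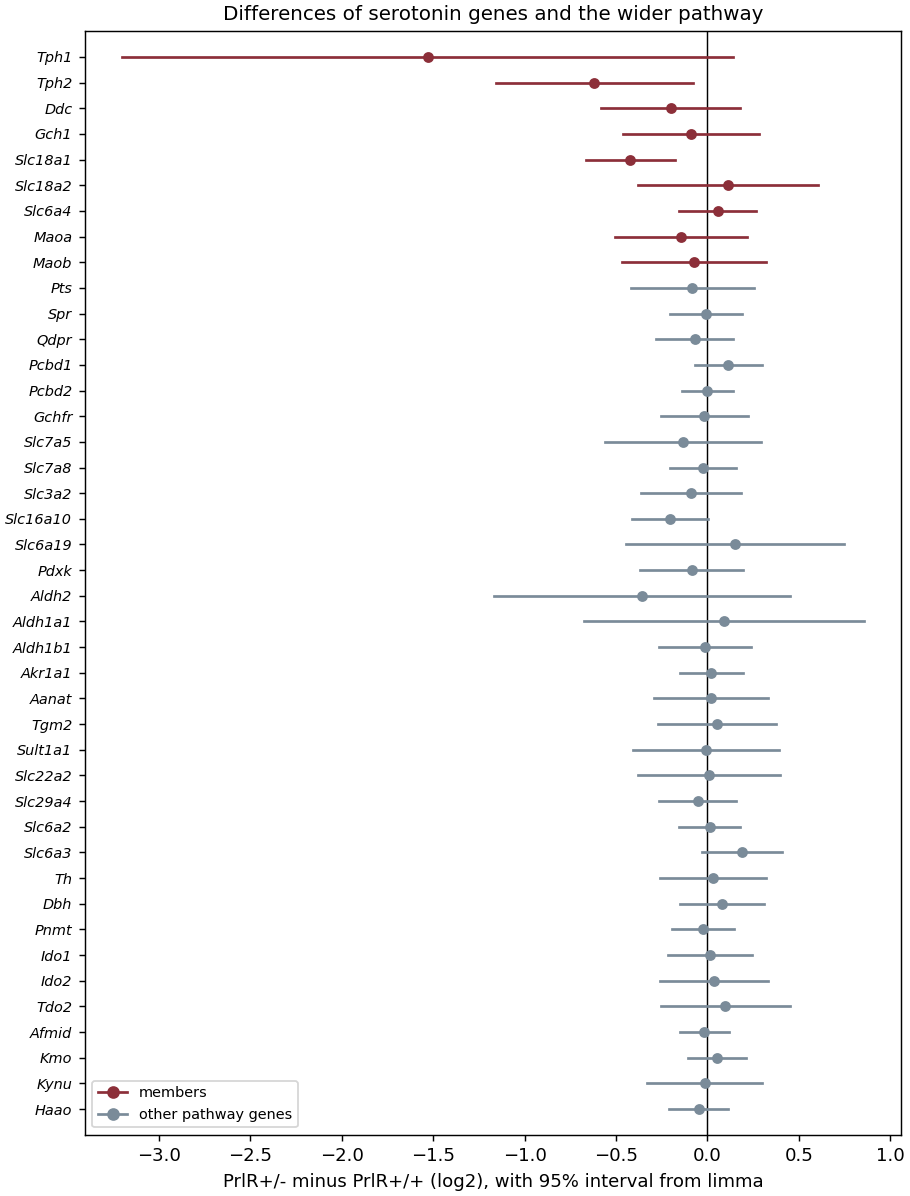
Differences of PrlR+/- minus PrlR+/+ islets in log2 units (points) with 95% intervals from limma (lines), for the 9 members and 33 other genes of the pathway. The intervals of Tph2 and Slc18a1 lie below 0, that of Tph1 runs from -3.20 to 0.14, and those of the 33 other genes all include 0.

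Across the 7 mice the members did not move as a single block. Of the 36 pairs of members, 23 had a positive and 13 a negative Pearson r, with a median of 0.244. By exact permutation over the 5040 pairings of the mice, 4 pairs had an unadjusted p under 0.05 by Pearson's r and 6 by Spearman's rho, and 0 pairs by either measure after Benjamini-Hochberg adjustment over the 36 pairs. With genotype means removed and mice permuted within genotype, 2 pairs had an unadjusted p under 0.05 and 0 after adjustment. These were Slc6a4 with Maob, described below, and Tph1 with Slc18a2. For Tph1 and Slc18a2 the centred r was 0.757 (exact permutation within genotype p = 0.0417, adjusted p = 0.667). Without centring r was 0.458, and -0.119 without PrlR+/- 3 and PrlR+/+ 1. All members were read from the same arrays, so errors of an array are shared between them.

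Tph1 and Tph2 kept nearly the same order of mice but not the same distances. Spearman's rho was 0.857 (exact permutation p = 0.0238, adjusted p = 0.273), whereas Pearson's r was 0.520 (exact permutation p = 0.236, adjusted p = 0.606). Without PrlR+/- 3 and PrlR+/+ 1, the mice farthest from the median of Tph1, r was 0.968. With genotype means removed it was 0.138 over all 7 mice. The relation of Tph1 to Slc18a1 was similar, with rho of 0.775 (exact permutation p = 0.0532, adjusted p = 0.273), r of 0.660 (exact permutation p = 0.077, adjusted p = 0.346), 0.793 without the same mice, and 0.312 with genotype means removed. For Tph1 and Ddc, the consecutive enzymes, r was 0.254 (exact permutation p = 0.525, adjusted p = 0.743) and rho 0.607 (exact permutation p = 0.167, adjusted p = 0.539), with r of 0.671 without the same mice. Ddc in PrlR+/- 3 was at 11.62, below the PrlR+/+ range of 11.69 to 11.82, but the lowest Ddc, 11.15, was that of PrlR+/- 4.

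Tph2, Ddc and Gch1 all had their lowest value in PrlR+/- 4. Tph2 and Ddc had r of 0.806 (exact permutation p = 0.0212, adjusted p = 0.346) and rho of 0.679 (exact permutation p = 0.11, adjusted p = 0.438), and r was 0.595 without PrlR+/- 4 alone. PrlR+/- 4 is farthest from the median of Tph2, and PrlR+/+ 3 and PrlR+/- 2 are equally far as the next. Without PrlR+/- 4 and PrlR+/+ 3 r was 0.805, and without PrlR+/- 4 and PrlR+/- 2, an alternative chosen after seeing the data, it was 0.183, so the relation rests on these mice. With genotype means removed, r was 0.788 for Tph2 and Ddc, 0.824 for Ddc and Gch1 and 0.723 for Gch1 and Maoa. None of these had a p under 0.05 (exact permutation within genotype p = 0.132, 0.167 and 0.236, adjusted p = 0.767 for each). Ddc and Gch1 had r of 0.819 (exact permutation p = 0.0341, adjusted p = 0.346) and rho of 0.631 (exact permutation p = 0.141, adjusted p = 0.509). This relation rested on few mice: r was 0.362 without PrlR+/- 4 and PrlR+/- 1 and 0.406 without PrlR+/- 4 alone. Gch1 and Maoa had r of 0.737 (exact permutation p = 0.0476, adjusted p = 0.346) and rho of 0.811 (exact permutation p = 0.0349, adjusted p = 0.273), and 0.908 without PrlR+/- 4 and PrlR+/- 3. The lowest p among the pairs was that of the negative relation between Slc6a4 and Maob, with r of -0.884 (exact permutation p = 0.00992, adjusted p = 0.346), rho of -0.821 (exact permutation p = 0.0341, adjusted p = 0.273) and r of -0.779 without PrlR+/- 4 and PrlR+/+ 1. With genotype means removed it was -0.882 (exact permutation within genotype p = 0.0347, adjusted p = 0.667). Slc6a4 ranged over only 5.70 to 6.04 and was dim. After quantile normalization of the arrays the adjusted p of this pair was 0.0214, with r of -0.974.

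**Figure D3:**
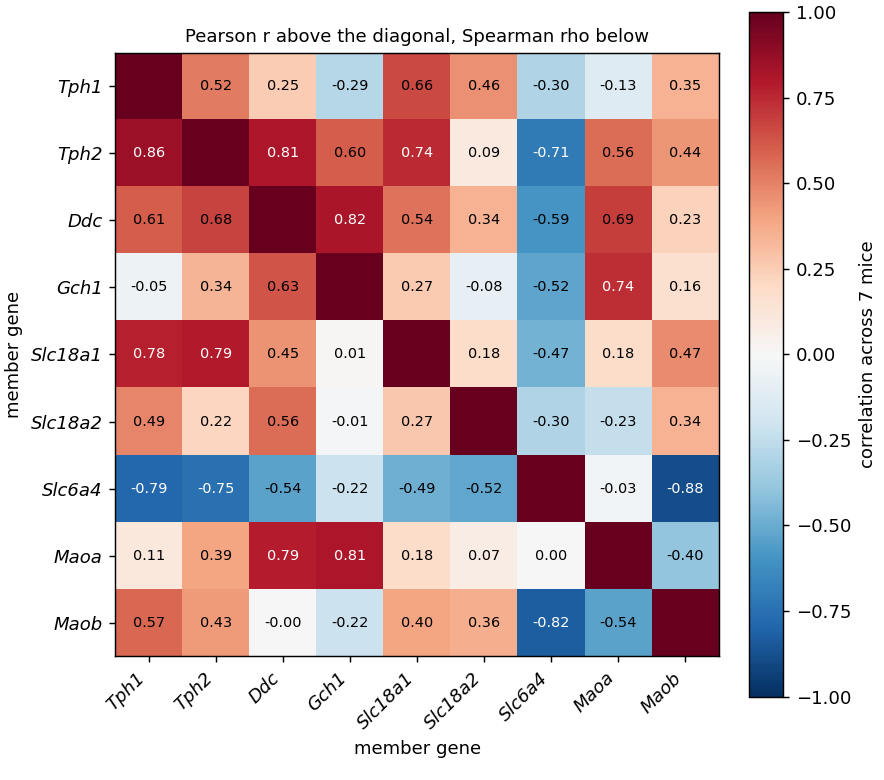
Correlation of each pair of members across the 7 mice, with Pearson's r above the diagonal and Spearman's rho below it; red is positive and blue negative. Tph1 and Tph2 stand at 0.52 above and 0.86 below the diagonal, and the values of Slc6a4 with the other members are all at or below 0, down to -0.88 with Maob.

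Genes whose log2 values followed Tph1 most closely were ranked by Pearson's r among 11525 named genes that passed the 40th percentile filter, as a description with no test. The highest were Txnrd2, the mitochondrial thioredoxin reductase (r = 0.994), Utp25 (0.986), Hsd17b10 of mitochondrial fatty acid and RNA metabolism (0.985), Oga, which removes O-linked N-acetylglucosamine from proteins (0.983), Tob2 (0.982), Cstf2 of messenger RNA 3′ end cleavage (0.979), Hgh1 (0.971) and Gp9, a platelet glycoprotein (0.970). Their patterns shared the low value of PrlR+/- 3, in which Txnrd2 was at 7.11 against 7.54 to 7.86 in the 6 other mice. Their ranges were much narrower than that of Tph1, and without PrlR+/- 3 and PrlR+/+ 1 their r lay between 0.765 and 0.945. The most opposed were Atp4a, the gastric proton pump subunit (-0.987), Pwwp2b (-0.980), Khnyn (-0.977) and Pam16 (-0.977). For Slc18a1 the closest were Snx14 (0.984), Lhfpl4 (0.977), the mitochondrial chaperonin gene Hspd1 (0.965) and Mkln1 (0.962).

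Genes that respond to prolactin or placental lactogen in mouse islets were set beside Tph1 for the same mice. This list of 7 was drawn up with their lower values in PrlR+/- islets of these samples known, so its direction is not independent evidence and only the pattern between mice is described. By Pearson's r over all 7 mice, Cldn8, a claudin of tight junctions, was the closest of the 7 genes to Tph1. Cldn8 was at 12.18, 11.33 and 12.17 in PrlR+/+ 1 to 3 and at 11.55, 11.39, 9.74 and 10.21 in PrlR+/- 1 to 4. Like Tph1 it was lowest in PrlR+/- 3, at 22.5% of the PrlR+/+ mean, and its r with Tph1 was 0.899, or 0.830 with genotype means removed. The osteoprotegerin gene Tnfrsf11b (r = 0.881) and the STAT target Cish (0.877), a feedback inhibitor of cytokine signalling, were also lowest in PrlR+/- 3, at 8.47 and 10.93. Lrrc55, a potassium channel subunit, had its lowest value there as well, 9.25, with r of 0.718. With genotype means removed, r with Tph1 was 0.802 for Tnfrsf11b, 0.796 for Cish, 0.487 for Lrrc55, 0.278 for Ivd, 0.149 for Socs2 and -0.374 for Ehhadh. The order depended on the far mice. Without PrlR+/- 3 and PrlR+/+ 1, Cish was closest with r of 0.968, followed by Cldn8 (0.889), Lrrc55 (0.846) and Socs2 (0.835). Ivd (0.713), Ehhadh (0.663) and Tnfrsf11b (0.662) came last. Over all 7 mice, Socs2, a further feedback inhibitor (0.579), Ivd of leucine breakdown (0.637) and Ehhadh of peroxisomal fat oxidation (0.273) were lowest in other PrlR+/- mice. For Slc18a1 the closest of the 7 was Ivd, with r of 0.954, and PrlR+/- 4 was lowest in both. Without PrlR+/- 4 and PrlR+/- 3, r with Slc18a1 was 0.845 for Ivd and 0.876 for Lrrc55.

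**Figure D4:**
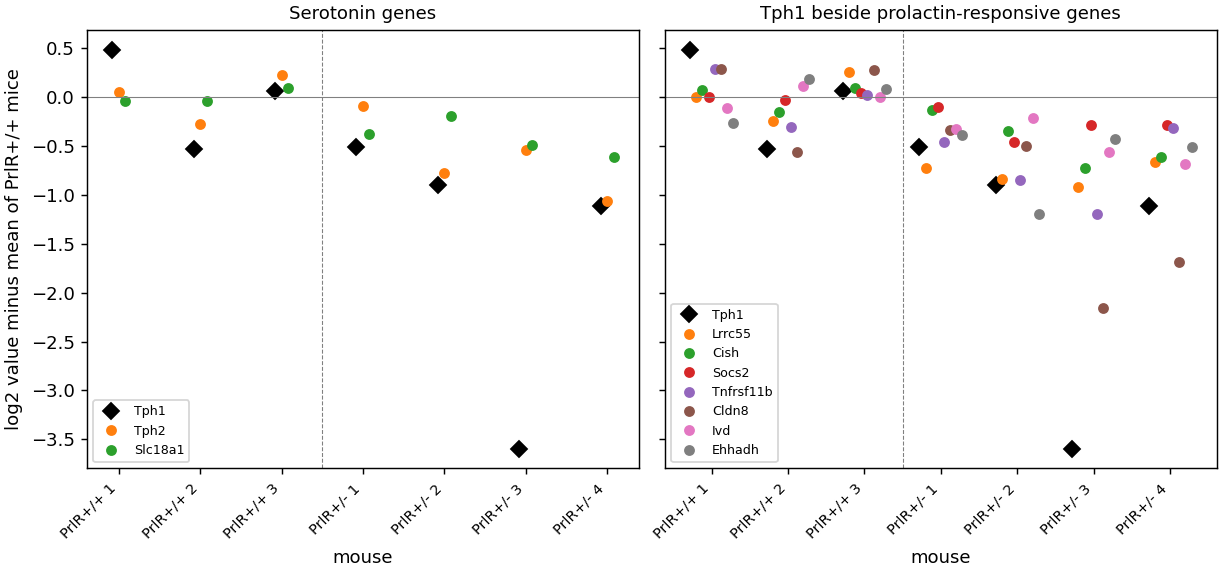
Log2 value in each mouse minus the mean of the PrlR+/+ mice, for Tph1 (black diamonds) beside Tph2 and Slc18a1 (left) and beside 7 prolactin-responsive genes (right); the dashed line separates PrlR+/+ from PrlR+/- mice. In PrlR+/- 3, Tph1 is at -3.59 and Cldn8 at -2.15, while Slc18a1 is at -0.49.

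In the wider pathway no gene passed the test, and the intervals of some genes were wide. That of the ratio of PrlR+/- to PrlR+/+ ran from 0.444 to 1.37 for Aldh2 and from 0.734 to 1.68 for Slc6a19. Of 39 genes listed, 33 were measured and 6 were not analysed here. limma called 0 of the 33, and 0 had an unadjusted p under 0.05, where 2.20% of all genes did. Their means were lower in PrlR+/- for 18 and higher for 15, with a median difference of -0.01. Among 6 genes that make or recycle tetrahydrobiopterin, differences ran from -0.08 to 0.11, with the dehydratase gene Pcbd1 at 12.56 ± 0.06 (SD, n = 4) against 12.44 ± 0.14 (SD, n = 3). The list for tryptophan uptake held 5 genes of amino acid transporters or their subunits. Among them, Slc16a10 had the lowest p of the wider pathway. It was at 11.42, 11.44 and 11.34 in PrlR+/+ 1 to 3 and at 11.36, 11.28, 11.08 and 11.06 in PrlR+/- 1 to 4, so that PrlR+/- 1 lay just above PrlR+/+ 3. Its difference was -0.21 ± 0.09 (SE; limma, unadjusted p = 0.054, adjusted p = 0.99).

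Downstream of the oxidases, the mitochondrial aldehyde dehydrogenase gene Aldh2 was within 9.52 to 9.60 in PrlR+/+ mice and at 9.23, 10.01, 9.29 and 8.30 in PrlR+/- 1 to 4, with a difference of -0.36 ± 0.35 (SE). Its lowest value was again that of PrlR+/- 4. The dopamine transporter gene Slc6a3, which was dim, differed by 0.19 ± 0.09 (SE; limma, unadjusted p = 0.0832). Pdxk, which activates vitamin B6 for Ddc, was at -0.09 ± 0.12, the noradrenaline enzyme gene Dbh at 0.08 ± 0.10 and Kmo of the kynurenine route, which competes for tryptophan, at 0.05 ± 0.07 (SE). Of the 33 genes of the wider pathway 13 were under the 40th percentile filter, among them Slc6a3, Dbh and 6 of 7 kynurenine pathway genes.

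Cells other than beta cells that hold or make serotonin, such as mast cells and platelets, were checked by their markers, followed by other cell types. Of 9 mast cell markers 8 were under the 40th percentile filter, among them Cpa3 at 3.88 to 3.98 and Tpsb2 at 6.27 to 6.31, and the mean of the list ranged from 5.09 to 5.15 among PrlR+/+ and from 5.05 to 5.23 among PrlR+/- mice. Of 5 measured platelet markers 3 were under it, with Pf4 at 5.28 to 5.78, Ppbp at 4.54 to 4.97 and list means of 6.05 to 6.17 and 5.96 to 6.28. Gp9, named above for its likeness to Tph1, is 1 of these 5. The means of 6 Schwann cell and neuron markers ranged from 7.08 to 7.21 among PrlR+/+ and from 7.15 to 7.40 among PrlR+/- mice. Those of 6 endothelial markers were 9.26 to 9.39 and 9.24 to 9.55, with Pecam1 at 8.72 to 8.99 and 8.72 to 9.07 and Cdh5 at 9.42 to 9.56 and 9.49 to 9.85. Those of 6 macrophage markers were 7.94 to 8.33 and 8.17 to 8.38, with Adgre1 at 6.79 to 7.23 and 6.89 to 7.14 and Csf1r at 7.36 to 7.48 and 7.34 to 7.58. limma called 0 of these markers after adjustment, where it called 0% of all genes. At an unadjusted p under 0.05, the endothelial genes Cdh5 and Emcn and the lysozyme gene Lyz2 were higher in PrlR+/- islets. The nerve growth factor receptor gene Ngfr was lower. Over all genes, 2.20% had such a p in either direction. Lyz2, singled out after its values were seen, was at 7.93 to 8.19 in PrlR+/+ mice and at 8.49 to 8.80 in all PrlR+/- mice. Its p ranked 1 among 19938 genes (limma, unadjusted p = 0.000291, adjusted p = 0.99). Acinar means were 13.18 to 13.43 and 13.24 to 13.51, and duct means 6.58 to 6.75 and 6.70 to 7.16. The means of 3 alpha cell markers did not overlap, at 10.31 to 10.32 and 10.35 to 10.44. Each of the 3 genes overlapped when taken singly, with an unadjusted p (limma) of 0.41 for Gcg, 0.221 for Irx2 and 0.382 for Irx1. No share over all genes is given for such list means. For delta cells the list means were 10.66 to 11.12 and 10.72 to 11.19, and for PP cells 8.47 to 8.56 and 8.56 to 8.66. Beta cell means were 11.86 to 12.07 in PrlR+/+ and 11.71 to 12.01 in PrlR+/- mice. The part of cell composition in the members' differences was not tested.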

How the data were processed

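The authors deposited log2 values with 1 column per mouse and 35556 probe sets. That they are log2 values follows from their range. The submitters' processing notes name Affymetrix Expression Console 1.2.0.20; how background and normalization were handled is not given in the sources used here. Per the labels, 250 ng of RNA with an integrity number above 8.5 was labelled. Probe sets were named by the platform annotation; those with 1 symbol gave 19938 genes, each by its brightest probe set. Differences come from limma 3.58.1 in R 4.3.3 over all genes; the threshold was a 2-sided p under 0.05 after Benjamini-Hochberg adjustment, and the script was tested on simulated data. Differences of group means of single genes, and correlations of pairs of members, were also tested by exact permutation in Python 3.11.15. Members and lists were chosen with earlier results of these data known. Named genes are all members and prolactin-responsive genes, the gene of smallest p in each part of the wider pathway, the 8 most and 4 least like Tph1, the 4 most like Slc18a1, and the first markers of each cell type. The values of Mafa, Slc2a2, Emcn, Lyz2 and Ngfr were known when these were chosen. Alternatives were scaling, filters, probe set means, variance model, array weights, replicate block and leaving out each mouse. Nothing in the labels says that replicate numbers pair the mice. Same-numbered mice deviated together with r of 0.09, -0.39 and -0.03 across genes, and unlike-numbered mice with r from -0.24 to 0.40. Deviations were taken from the means of small groups, so these values cannot decide whether mice were paired.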

Additional observations from a re-analysis of the deposited data

Results flagged for a closer look

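For 121 genes, which are the members, the wider pathway, the prolactin-responsive genes, the cell markers and the genes like Tph1 or Slc18a1, the 4 PrlR+/- mice were searched for a value far from the other 3 by Dixon's ratio. A total of 21 genes had one. Chance alone gives about 1 in 20, but the count cannot be read against it, since 16 of the genes were chosen for their likeness to a member and values that tie after rounding raise the ratio. Of these 16, 6 had such a value, all in PrlR+/- 3, where Tph1 has its own extreme: Txnrd2 at 7.11, Utp25 at 8.31, Hsd17b10 at 9.89, Oga at 8.92, Cstf2 at 8.52 and Khnyn at 7.91. Among the other 105 genes, 15 had one. In PrlR+/- 3 these were Slc6a19 at 7.89 against 6.85 to 7.0, Tdo2 at 4.92 against 4.32 to 4.42 and Tpsb2 at 6.27, where the other 3 mice all had 6.31. In PrlR+/- 2 they were Ehhadh at 8.91 against 9.59 to 9.71, Ido1 at 5.02, Aldh1b1 at 6.83, where the other 3 mice all had 6.81, and the duct markers Sox9 at 8.20 against 7.73 to 7.76 and Muc1 at 10.12 against 8.73 to 8.95. In PrlR+/- 1 they were Kynu at 6.26 and Haao at 6.19, where the other 3 mice all had 6.27. In PrlR+/- 4 they were the amino acid transporter subunit Slc3a2 at 12.18 against 12.56 to 12.63, the mast cell marker Fcer1a at 3.85 against 3.71 to 3.72, the beta cell transcription factors Mafa at 9.54 and Pdx1 at 10.85 against 11.15 to 11.17, and the delta cell marker Hhex at 6.75 against 7.57 to 7.73. The search covered PrlR+/- mice only, and Pdx1 was lower still in PrlR+/+ 2, at 10.64. No member reached the limit of 0.829, and the ratio for Tph1 was 0.805.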

How the results depend on the processing

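The filters, the variance model and the probe set means cannot change a member's difference, only its error and p. Tph1, Tph2, Slc18a1 and Maoa kept a lower mean in PrlR+/- under all 15 alternatives, those included. For Maoa the sign was kept only narrowly. Its difference ran from -0.242 without PrlR+/+ 1 to -0.00877 with array weights, the latter with an SE of 0.134. No member and no other pathway gene was called in any of the alternatives. Over these alternatives the adjusted p of the members lay between 0.818 and 1.0. Tph1 lay between -1.87 (without PrlR+/- 1) and -0.843 (without PrlR+/- 3). The difference of Ddc turned to 0.00766 with array weights. Gch1 turned to 0.0153 with array weights and to 0.0367 with the replicate block or without PrlR+/- 4, Slc18a2 to -0.01 and -0.00333 without PrlR+/- 1 and 2, Slc6a4 to -0.005 without PrlR+/+ 1, and Maob to 0.00667 with the replicate block or without PrlR+/- 4 and to 0.0525 without PrlR+/+ 1. With a mouse left out, Gch1 ranged from -0.197 to 0.0367, Slc18a2 from -0.01 to 0.26, Slc6a4 from -0.005 to 0.13 and Maob from -0.253 to 0.0525. With a mouse left out, 1 to 4 members had an unadjusted p under 0.05 (limma) and the groups of 1 to 4 members did not overlap. No share of all genes is given for these sets of mice. The number of other pathway genes with such a p was 0 to 1 with a mouse left out, 1 with median centring and 1 with array weights. After quantile normalization 1 pair of members, Slc6a4 and Maob, passed adjustment. Each member has 1 probe set, so probe set means do not alter its values. With the replicate block, in which PrlR+/- 4 has no partner, Tph1 was at -1.67 and Slc18a1 at -0.357, and the block changed no call. Arrays have no read depth, and the signal of Slc6a4 and Slc18a2 was dim.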

Other observations

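The deposited values of many genes were equal between arrays. Of 19938 genes, 1126 (5.65%) had the same value on all 3 PrlR+/+ arrays. Th, the enzyme that starts catecholamine synthesis, was at 10.47 on each of them and at 10.20, 10.52, 10.52 and 10.77 in PrlR+/- 1 to 4. Mafa was at 10.32 on each of them.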
